A study of Mus musculus with 4 samples.

Results

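The 9 genes described here break down amino acids or carry them across membranes: Ido1, Ido2 and Kynu of the kynurenine route from tryptophan, the oxidase Il4i1, the arginases Arg1 and Arg2, the transporters Slc7a11 and Slc7a5, and the threonine dehydrogenase Tdh. They were chosen by name, and each matched 1 row of the count matrices, so 9 of 32289 genes are described. Single cells were taken from the mesenteric lymph nodes (mLN) of 12 untreated Gm38411-iCre-hCD2 R26 tdTomato mice, aged 15 days. All cells had passed 1 sort for CD3- B220- CD11c+ MHC-II+ tdTomato+ cells and were then split into hCD2+ cells, which formed 1 droplet library, and hCD2- cells, which formed the other. Each mouse carried its own antibody hashtag and gave cells to both libraries, so the mouse is the replicate. Since each fraction is 1 library, the fraction and the library preparation cannot be told apart. As background, Cre switches the R26 reporter on for good in a cell and its progeny. Both fractions carry that mark, and no mouse without the Cre allele was analysed here.

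IDO1 and IDO2 open the tryptophan ring and so start the kynurenine pathway, and KYNU, kynureninase, cleaves kynurenine and its hydroxylated form further down. IL4I1 is a secreted oxidase of aromatic amino acids, arginases turn arginine into ornithine and urea, the Slc7a11 product (xCT) imports cystine in exchange for glutamate, and the Slc7a5 product (LAT1) carries large neutral amino acids such as tryptophan. Loss of tryptophan or arginine and the build-up of kynurenines restrain T cells, which is why these enzymes are studied in tolerogenic dendritic cells (DCs). TDH, the mitochondrial L-threonine dehydrogenase, starts a breakdown of threonine that yields glycine.

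RefSeq promoter sequences of the GRCm38.p6 assembly were matched for Il4i1 and Slc7a11, 2 of the 9 genes. They are shown because no promoter was matched for the other genes. Both transcripts were highest in CCR7 DC-like cells, as given with the class levels, and no link to the motifs was tested. Each sequence runs 5′ to 3′ from 250 bases before to 50 bases after the RefSeq start, at chr7:44836038-44836337 on the plus strand for Il4i1 and chr3:50443564-50443863 on the minus strand for Slc7a11. Capitals mark matches to any of the motifs searched.
Il4i1: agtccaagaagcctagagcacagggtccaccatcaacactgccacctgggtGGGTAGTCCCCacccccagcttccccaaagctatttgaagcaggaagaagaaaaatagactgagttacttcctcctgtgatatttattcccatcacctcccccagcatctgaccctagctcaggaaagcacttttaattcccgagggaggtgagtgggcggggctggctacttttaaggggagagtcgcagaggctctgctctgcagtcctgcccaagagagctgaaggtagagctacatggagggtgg
Slc7a11: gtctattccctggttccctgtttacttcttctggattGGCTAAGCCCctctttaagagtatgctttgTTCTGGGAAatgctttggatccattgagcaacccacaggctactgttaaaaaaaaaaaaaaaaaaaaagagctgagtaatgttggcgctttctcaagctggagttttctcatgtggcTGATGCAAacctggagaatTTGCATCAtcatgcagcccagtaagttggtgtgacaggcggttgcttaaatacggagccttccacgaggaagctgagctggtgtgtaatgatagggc

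The motifs were searched on both strands of 32817 promoters of the same length. The amino acid response element type motif TGATGNAA was found at 2 places in the Slc7a11 promoter, starting 66 and 47 bases before the start site, and nowhere in that of Il4i1. It occurs in 3.97% of all promoters, and 0.0701% hold 2 or more matches. The STAT type motif TTCNNNGAA matched at 1 place in Slc7a11 and is found in 8.29% of promoters. The NF-kB type motif, GGG and CC with any 5 bases between them, matched at 2 overlapping places in Il4i1 and at 1 in Slc7a11, and 50.8% of promoters hold it. No match was found in either for the antioxidant response element type motif TGACNNNGC, the interferon response type, GAAA and GAAA with any 2 bases between them, or the AHR type GCGTG, held by 12.4%, 3.43% and 32.4% of promoters. A match describes the letters of the window only.

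In mm10 coordinates of the GENCODE annotation, Ido1 (chr8:24584136-24597009) and Ido2 (chr8:24531892-24576333) are neighbours on the minus strand, 7802 bases apart. Kynu is at chr2:43555329-43682715 on the plus strand and Arg1 at chr10:24915221-24927484 on the minus strand. Slc7a11 is at chr3:49892526-50443614 and Slc7a5 at chr8:121881150-121907694, both on the minus strand. Il4i1 (chr7:44816387-44840809, plus strand) shares 97 exonic bases with Nup62 on the same strand, and 82 with Atf5 and 3423 with Tbc1d17 on the other. Arg2 (chr12:79130777-79156301, plus strand) shares 285 exonic bases with Vti1b, and Tdh (chr14:63492347-63509092, minus strand) shares 66 with an antisense gene. The strand setting of the counting is not given in the sources used here, so reads of these overlaps are uncertain. The RefSeq start used for the Il4i1 promoter lies inside the span of the GENCODE gene.

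After filtering, 7099 hCD2+ and 4762 hCD2- cells assigned to 1 mouse were used, with 365 to 897 and 234 to 592 cells per mouse and medians of 17486 and 23846 unique molecular identifiers (UMIs) per cell. The libraries shared 9 barcodes among these cells. Transcripts of the targeted locus, Gm38411, averaged 41.0 ± 5.83 UMIs per 1000000 UMIs (CPM) in hCD2+ cells and 1.27 ± 0.392 CPM in hCD2- cells (SD, n = 12 mice each), and those of the hCD2 tag 38.1 and 1.21 CPM, in the direction of the sort. The cells fell into 25 clusters, of which 9 stayed unnamed, and the labelled DC sort held other cells too. ILC3 or LTi-like cells numbered 2390 in the hCD2+ and 172 in the hCD2- library. Prdm16 or Aire DC-like cells numbered 1271 and 195, CCR7 migratory DC-like cells 752 and 961, cDC2-like cells 156 and 909, and cDC1-like cells 88 and 256. T cell-like cells, 292 and 938 in number, were present despite the CD3- gate, as were 48 and 433 NK or ILC1-like cells. Prdm16 averaged 2377 CPM in hCD2+ and 119 CPM in hCD2- cells of the class named after it, and Ccr7 averaged 2319 and 2488 CPM in the CCR7 class. Of the 195 hCD2- cells of the Prdm16 or Aire class, 180 lay in cluster 6, where only 3 of the 10 class markers were elevated. Values given for hCD2- cells of that class are thus mainly those of cluster 6. Erythroid markers, 8 genes, summed to 7421 CPM in the CCR7 class of 1 hCD2+ mouse, against a median of 9.62 CPM over the hCD2+ mice.

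Over all cells of each fraction, 8 of the 9 genes differed between hCD2+ and hCD2- cells, where 67.8% of all 13236 genes tested did. Tests were edgeR quasi-likelihood tests on counts summed per mouse, with p-values adjusted over all genes by Benjamini-Hochberg and a threshold of 0.05. Unless the mouse is named as a block, these fits and those of the interaction took samples of the same mouse as independent. Tdh, Arg1, Ido1, Ido2 and Il4i1 were higher in hCD2+ cells, and Slc7a11, Slc7a5 and Kynu were lower. The 9 genes had a median log2 fold change of 0.32, against -0.01 over all genes. In these mixtures, fewer cells of a type and less RNA per cell cannot be told apart.

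Tdh had the largest fold change of the 9. Its lowest, median and highest level was 26.5, 37.9 and 70.6 CPM in hCD2+ cells of the 12 mice, against 0.166, 1.13 and 2.89 CPM in hCD2- cells. All hCD2+ values lay above all hCD2- values, and the log2 fold change was 4.95 ± 0.223 (SE, adjusted p = 5.46e-16). Arg1 had 18.7, 27.2 and 42.1 CPM in hCD2+ cells, against 0.801, 3.62 and 8.23 CPM in hCD2- cells, again with no overlap (log2 3.0 ± 0.3, adjusted p = 2.58e-09).

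Ido1 and Ido2 were low in both fractions and did not overlap between them. Ido1 averaged 4.97 ± 1.62 CPM in hCD2+ and 1.11 ± 0.657 CPM in hCD2- cells (SD, 12 mice each; log2 2.16 ± 0.249, adjusted p = 2.92e-08). Ido2 averaged 6.03 ± 1.05 CPM in hCD2+ and 1.94 ± 0.661 CPM in hCD2- cells (log2 1.60 ± 0.155, adjusted p = 1.37e-09).

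The transporters went the other way in 12 of 12 mice. Slc7a11 had a lowest, median and highest level of 13.5, 26.1 and 32.9 CPM in hCD2+ cells, against 36.6, 61.6 and 84.0 CPM in hCD2- cells (log2 -1.30 ± 0.141, adjusted p = 9.91e-09). Slc7a5 had 12.7, 17.5 and 23.8 CPM in hCD2+ cells, against 27.2, 37.5 and 46.2 CPM in hCD2- cells (log2 -1.08 ± 0.102, adjusted p = 9.12e-10). Neither gene overlapped between the fractions.

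Il4i1, Kynu and Arg2 overlapped. Il4i1 averaged 237 ± 38.2 CPM in hCD2+ and 186 ± 37.0 CPM in hCD2- cells, higher in 11 of 12 mice (log2 0.32 ± 0.104, adjusted p = 0.00917). With cells thinned to 5000 UMIs, and those with fewer dropped, that log2 fold change was 0.00 (edgeR, adjusted p = 0.981). The set of cells changed with this, since unnamed cluster 1, with a median of 2453 UMIs, held 927 hCD2+ and 75 hCD2- cells. Kynu averaged 196 ± 40.1 CPM in hCD2+ and 237 ± 32.4 CPM in hCD2- cells, lower in 11 of 12 mice (log2 -0.30 ± 0.0905, adjusted p = 0.00478). Arg2, with 9.97 ± 2.74 CPM in hCD2+ and 9.01 ± 1.82 CPM in hCD2- cells, did not pass the test (adjusted p = 0.478).

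**Figure D1:**
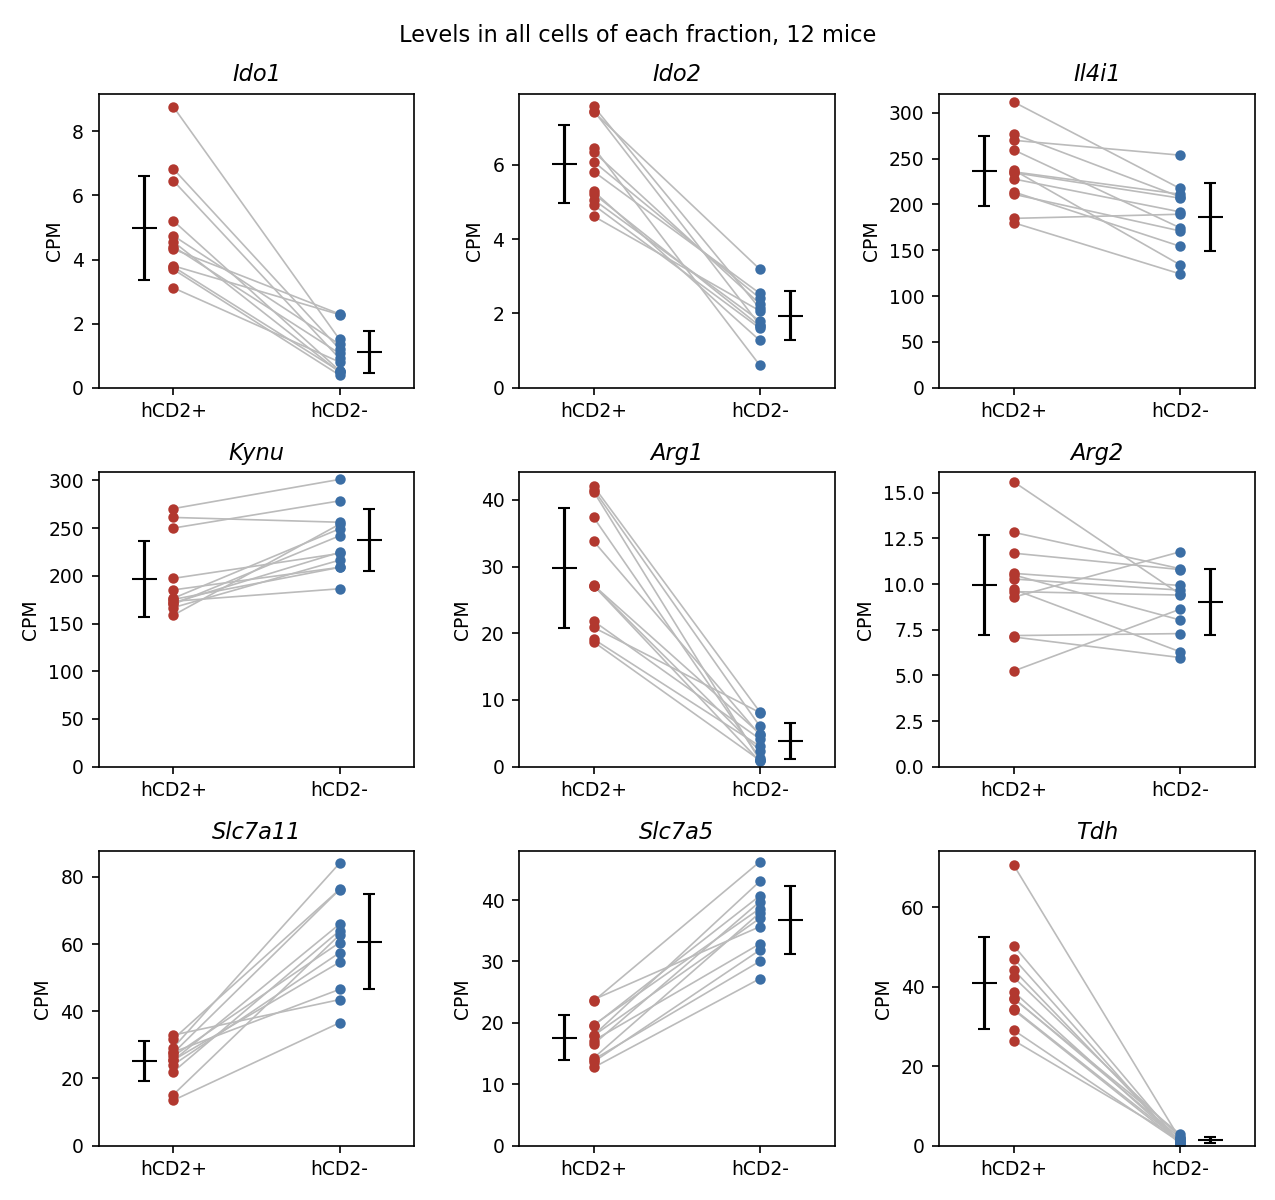
CPM of the 9 genes (y axis, from 0) in all cells of the hCD2+ and hCD2- fractions (x axis); a point is 1 mouse, grey lines join the fractions of a mouse, and bars give the mean and SD. Tdh lies at 26.5 to 70.6 CPM in hCD2+ cells and at 0.166 to 2.89 CPM in hCD2- cells, while the Arg2 values of the fractions overlap.

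Across cell classes the genes peaked in different places. Class means per gene were ordered within a library, and each class was tested against the next lower one by an exact sign-flip permutation test over mice, two-sided and adjusted over the 90 neighbouring pairs, of which 32 differed. Levels of different genes are not compared, since 3′ counts depend on each gene's transcript end. The clusters behind the classes were formed without the 9 genes.

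Among the tryptophan genes, Ido1 and Ido2 were highest in the Prdm16 or Aire DC-like and the CCR7 DC-like class. In hCD2+ cells Ido1 averaged 10.4 ± 2.5 CPM in the Prdm16 or Aire class, 0.073 in the ILC3 class, 14.9 ± 10.7 in the CCR7 class and 0.227 in the cDC2 class (SD; 12, 12, 12 and 8 mice). The CCR7 and the Prdm16 or Aire class did not differ in the order test, while the cDC2 class lay below them. Ido2 averaged 14.8 ± 4.44 CPM in the Prdm16 or Aire class, 0.0974 in the ILC3 class and 13.1 ± 5.43 in the CCR7 class, and no Ido2 UMI was counted in cDC2-like cells of the hCD2+ library. Set against a floor of 3 counts over that group, Ido2 was at least 20.3-fold higher in the Prdm16 or Aire class. No Ido1 UMI was found in 265 hCD2+ or 905 hCD2- T cell-like cells thinned to 5000 UMIs, which allows up to 1.13% and 0.331% of such cells to show a UMI at that depth and sets no limit on the cells that express the gene.

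Counts of Ido1 and Ido2 per cell were low, so the share of cells with a UMI depends on depth and does not give the share of cells that express the gene. Ido1 was seen in 5.13% of hCD2+ and 1.88% of hCD2- Prdm16 or Aire DC-like cells thinned to 5000 UMIs, and in 5.4% and 1.65% of CCR7 DC-like cells. Of 61 hCD2+ Prdm16 or Aire DC-like cells with an Ido1 UMI, 29.5% also had an Ido2 UMI, against 4.61% of the cells without Ido1. Within cluster 2 of that class, the Aire-high one, the shares were 34.0% of 50 cells with Ido1 and 11.6% of those without. These are counts of cells, which share their mice, and no test was made on them.

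Kynu was found across the DC-like classes. In hCD2+ cells it averaged 374 ± 51.5 CPM in the Prdm16 or Aire class, 24.3 ± 6.05 in the ILC3 class, 316 ± 58.6 in the CCR7 class and 348 ± 125 in the cDC2 class. The DC-like classes did not differ from their neighbours in the order test, and the ILC3 class lay below them (exact permutation test, adjusted p = 0.00549). The Prdm16 or Aire class of the hCD2- library was mainly cluster 6, with 180 cells. In hCD2- cells the Prdm16 or Aire class had 732 ± 136 CPM (10 mice), the CCR7 class 348 ± 40 (12 mice), the cDC1 class 149 ± 36.7 (11 mice), the cDC2 class 412 ± 55.2 (12 mice) and the ILC3 class 24.7 ± 33.6 (11 mice). There each step down, through the Prdm16 or Aire, cDC2, CCR7, cDC1 and ILC3 classes, differed on this scale of total UMIs, but the direction between the cDC2 and CCR7 classes turned with TMM scaling, as given with that pair. A Kynu UMI was present in 71.6% of thinned hCD2+ and 93.8% of thinned hCD2- Prdm16 or Aire DC-like cells (Wilson 95% intervals 69.0 to 74.1% and 88.9 to 96.6%; 93.0% and 94.9% before thinning). The share in thinned T cell-like cells, taken as background, was 1.13% in hCD2+ and 0.884% in hCD2- cells. Intervals and floors cover counting error only.

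Il4i1 peaked in CCR7 DC-like cells. In the hCD2+ library it averaged 388 ± 50.1 CPM in the Prdm16 or Aire class, 9.27 ± 2.9 in the ILC3 class, 712 ± 107 in the CCR7 class, 73.2 ± 43.2 in the cDC2 class and 5.29 ± 2.35 in the T cell-like class. Each step of the order, from the CCR7 class through the Prdm16 or Aire, cDC2 and ILC3 classes to T cell-like cells, differed. Among hCD2- cells it averaged 281 ± 70.1 CPM in the Prdm16 or Aire class, 679 ± 50.5 in the CCR7 class, 3.4 ± 1.97 in the cDC1 class and 58.4 ± 7.58 in the cDC2 class. The ILC3, T cell-like, cDC1 and NK classes did not differ from their neighbours there. Of thinned CCR7 DC-like cells, 88.8% in the hCD2+ and 91.2% in the hCD2- library had an Il4i1 UMI, against 3.02% and 2.65% of T cell-like cells.

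The arginases were split between lineages. Arg1 averaged 0.377 ± 0.51 CPM in the Prdm16 or Aire class of the hCD2+ library, 89.0 ± 16.7 in the ILC3 class and 2.28 ± 4.4 in the CCR7 class, and the ILC3 class differed from the next. Arg1 UMIs were found in 22.8% of thinned hCD2+ and 25.1% of thinned hCD2- ILC3-like cells. Arg2 averaged 6.07 ± 2.42 CPM in the Prdm16 or Aire class, 0.416 ± 0.484 in the ILC3 class, 41.2 ± 11 in the CCR7 class and 1.48 ± 2.37 in the cDC2 class of the hCD2+ library, and the steps from the CCR7 through the Prdm16 or Aire to the cDC2 class differed. Monocyte or macrophage-like cells of the hCD2+ library, 119 in number, reached the cell minimum in 4 mice, and Arg2 averaged 46.9 ± 20.7 CPM there.

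Slc7a11 was highest in the CCR7 class and Slc7a5 was not. Slc7a11 averaged 0.699 ± 0.586 CPM in the Prdm16 or Aire class, 0.703 ± 1.41 in the ILC3 class, 119 ± 31.2 in the CCR7 class and 34.1 ± 39.2 in the cDC2 class of the hCD2+ library. Among hCD2- cells it averaged 4.31 ± 4.87 CPM in the Prdm16 or Aire class, 241 ± 58.9 in the CCR7 class, 1.25 ± 1.31 in the cDC1 class and 21.0 ± 11.3 in the cDC2 class. In both libraries the CCR7 class lay above the cDC2 class and the cDC2 class above the next one. Among the classes with at least 6 mice, Slc7a5 was highest in T cell-like cells, at 40.8 ± 21.1 CPM in the hCD2+ and 49.9 ± 8.59 CPM in the hCD2- library. The pDC-like cells of the hCD2- library, left out with 5 mice, had 58.2 CPM pooled, and their mice ran from 46.6 to 80.8 CPM. The T cell-like, cDC1 (48.6 ± 23.3 CPM) and NK classes (46.8 ± 11.4 CPM) of the hCD2- library did not differ from their neighbours in the order, and the cDC2 class (30.5 ± 6.17 CPM) lay below them.

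Tdh was highest in the Prdm16 or Aire class of the hCD2+ library. It averaged 147 ± 25.1 CPM there, 0.213 ± 0.42 in the ILC3 class, 10.3 ± 4.23 in the CCR7 class and 0.349 ± 0.987 in the cDC2 class, and the steps from the Prdm16 or Aire to the CCR7 and on to the cDC2 class differed. Among hCD2- cells it averaged 13.7 ± 16.8 CPM in the Prdm16 or Aire class and 2.62 ± 2.7 in the CCR7 class, which did not differ in the order test (higher in 8 of 10 mice; edgeR with the mouse as a block, log2 2.32 ± 0.641, adjusted p = 0.00466), and no UMI was counted in the cDC1 or cDC2 samples tested. Of thinned Prdm16 or Aire DC-like cells, 35.7% had a Tdh UMI in the hCD2+ library and 4.38% in the hCD2- library (Wilson intervals 33.0 to 38.5% and 2.14 to 8.75%; 55.4% and 12.8% before thinning). Thinned ILC3-like cells of the hCD2+ library, taken as background, had a share of 0.0846%. Droplets below the cell range held Tdh at 30.1 CPM in the hCD2+ and 1.75 CPM in the hCD2- library. Median depths were 31108 UMIs for hCD2+ and 23764 for hCD2- cells of the Prdm16 or Aire class, and 16580 for hCD2+ ILC3-like cells.

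**Figure D2:**
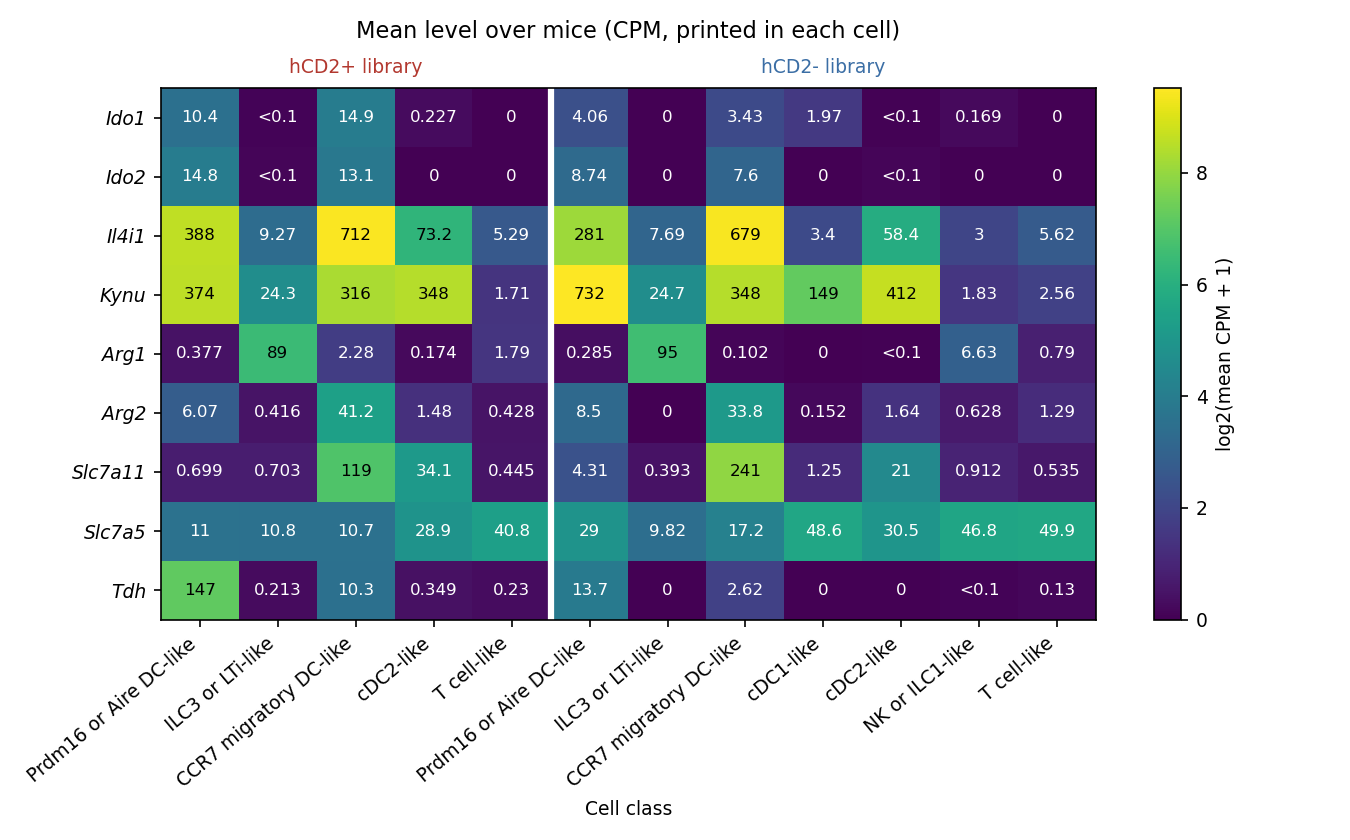
Mean CPM over mice of each gene (rows) in each cell class with at least 6 mice (columns), hCD2+ library left and hCD2- library right; colour is log2(mean CPM + 1). Il4i1, Arg2 and Slc7a11 are highest in the CCR7 class of both libraries, Arg1 in the ILC3 class, and Tdh in the hCD2+ Prdm16 or Aire class at 147 CPM.

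Pairs of classes were also tested with edgeR across all genes. Between the Prdm16 or Aire and the ILC3 class of the hCD2+ library, 6 of the 7 genes tested differed, where 80.9% of all genes did. Tdh (log2 9.56 ± 0.216, adjusted p = 2.16e-25), Ido2 (6.86 ± 0.33), Ido1 (6.62 ± 0.293), Il4i1 (5.56 ± 0.112) and Kynu (4.09 ± 0.11) were higher in the Prdm16 or Aire class, each in 12 of 12 mice. Arg1 was lower (log2 -7.54 ± 0.232, adjusted p = 2.89e-22). Slc7a5, at 11 ± 3.01 CPM in the Prdm16 or Aire class and 10.8 ± 2.28 CPM in the ILC3 class, did not pass (adjusted p = 0.204), but was higher in the Prdm16 or Aire class with Leiden resolution 1.5 (log2 0.33, adjusted p = 0.0244) and with the 9 genes allowed in clustering (0.30, adjusted p = 0.0403).

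Prdm16 or Aire DC-like cells differed from CCR7 DC-like cells of the hCD2+ library in 5 of 8 genes tested, against 74.8% of all genes. Tdh was higher (log2 3.47 ± 0.148, adjusted p = 4.34e-18). Slc7a11 (log2 -7.70 ± 0.223), Arg2 (-2.97 ± 0.177) and Il4i1 (-1.17 ± 0.076) were lower in 12 of 12 mice. Ido1 was lower too (log2 -0.83 ± 0.281, adjusted p = 0.00981), but in 7 of 12 mice. Without cluster 10 of the CCR7 class, 8 of 8 tested differed (74.6% of all genes), and Ido1 averaged 10.4 CPM in the Prdm16 or Aire class and 2.76 CPM in the CCR7 class, higher in 12 of 12 mice (log2 1.63 ± 0.259, adjusted p = 2.32e-06). Scaling by total UMIs in place of TMM moved the median of all genes in this pair by 0.31 on the log2 scale. With it Kynu, at -0.05 (adjusted p = 0.631) under TMM, was at 0.25 (adjusted p = 0.0116), and the adjusted p of Ido1 was 0.0864.

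The Prdm16 or Aire class differed from the cDC2 class of the hCD2+ library in 7 of 8 genes tested, against 58.8% of all genes. Il4i1 (log2 2.38 ± 0.21, adjusted p = 7.74e-10) was higher, as were Ido1, Ido2, Arg2 and Tdh, and Slc7a11 (-5.35 ± 0.549) and Slc7a5 (-1.34 ± 0.18) were lower. The ILC3 class differed from the CCR7 class in 7 of 7 genes tested, against 83.4% of all genes, and Arg1 alone among them was higher (log2 4.97 ± 0.329, adjusted p = 2.45e-14). Slc7a5 was lower in that pair with TMM scaling (log2 -0.49, adjusted p = 0.00579) but not with total UMI scaling (-0.03, adjusted p = 0.862).

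In the hCD2- library, CCR7 DC-like cells exceeded cDC2-like cells in Il4i1 (log2 3.93 ± 0.0719, adjusted p = 3.45e-27), Arg2 (4.50 ± 0.296) and Slc7a11 (3.84 ± 0.205). Slc7a5 was lower (-0.45 ± 0.136, adjusted p = 0.00376), so 4 of 5 genes tested differed, against 78.3% of all genes, and 8 of 8 with the mouse as a block. Kynu averaged 348 ± 40 CPM in the CCR7 and 412 ± 55.2 CPM in the cDC2 class. Its direction depended on the scaling, with log2 0.15 under TMM (adjusted p = 0.0506, and 0.0482 with the mouse as a block, 0.0361 with RLE, 0.0435 without the count filter and 0.0311 by DESeq2, each higher in the CCR7 class) and -0.24 under total UMI scaling (adjusted p = 0.0024), where the median of all genes moved by -0.39. Between the CCR7 and cDC1 classes 5 of 5 genes tested differed, where 79.1% of all genes did. Il4i1 (log2 8.06 ± 0.135), Slc7a11 (7.86 ± 0.264), Arg2 (7.26 ± 0.374) and Kynu (1.54 ± 0.105) were higher in the CCR7 class, and Slc7a5 was lower (-1.20 ± 0.206). Ido2, at 7.6 ± 3.04 CPM in the CCR7 class and 0 in the cDC1 class, was at least 26.1-fold higher.

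Between cDC1-like and cDC2-like cells of the hCD2- library 4 of 4 genes tested differed, against 57.7% of all genes. Slc7a5 was higher in cDC1-like cells (log2 0.71, adjusted p = 0.00181), and Il4i1 (-4.19), Slc7a11 (-4.06) and Kynu (-1.43) were lower. The Prdm16 or Aire class of that library was mainly cluster 6, with 180 cells and only 3 of the 10 class markers elevated. It differed from the CCR7 class in 4 of 5 genes tested, against 64.2% of all genes, with Kynu higher and not overlapping (log2 0.78 ± 0.095, adjusted p = 4.5e-08). Il4i1 (log2 -1.55), Arg2 (-2.42) and Slc7a11 (-5.71) were lower, and Slc7a5 did not pass (0.43, adjusted p = 0.0577) except under total UMI scaling (0.74, adjusted p = 0.00223). ILC3-like cells differed from NK-like cells in 2 of 2 genes tested, against 55.6% of all genes. Arg1 was higher, at 95 ± 67.6 CPM in ILC3-like and 6.63 ± 10.1 CPM in NK-like cells (log2 4.15 ± 0.491, adjusted p = 1.58e-08), and Slc7a5 was lower (-2.12, adjusted p = 2.17e-08).

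The hCD2+ and hCD2- fractions were then compared within each class. In the Prdm16 or Aire class 5 of 7 genes tested differed, where 49.8% of all genes did, and in the CCR7 class 5 of 8, where 32.6% did. In the ILC3 class 0 of 4 differed, with 2.94% of all genes, in the cDC2 class 0 of 4, with 11.4%, and in T cell-like cells 0 of 1, with 0.95%. Of the genes tested in these last 3 classes, edgeR gave 0 at an unadjusted p under 0.05, and DESeq2 also called 0.

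In the Prdm16 or Aire class Tdh had a lowest, median and highest level of 110.1, 146 and 195 CPM in hCD2+ cells of 12 mice, against 0, 8.61 and 52.4 CPM in hCD2- cells of 10 mice. The groups did not overlap (log2 3.55 ± 0.298, adjusted p = 1.33e-10), but they held the clusters of the class in different shares, as given below. Kynu had 279.8, 369 and 469.8 CPM in hCD2+ cells, against 572, 709.6 and 978 CPM in hCD2- cells, also with no overlap and lower in 10 of 10 mice (log2 -0.91 ± 0.0952, adjusted p = 7.77e-09). Slc7a5 had 7.78, 10.2 and 17.1 CPM in hCD2+ cells, against 16.2, 27.3 and 54.1 CPM in hCD2- cells, lower in 10 of 10 mice with 1 narrow overlap of the groups (log2 -1.29 ± 0.195, adjusted p = 3.47e-06).

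Il4i1 and Ido1 were higher in hCD2+ cells of the same class. Il4i1 averaged 388 ± 50.1 CPM in hCD2+ and 281 ± 70.1 CPM in hCD2- cells, higher in 9 of 10 mice (log2 0.51 ± 0.116, adjusted p = 0.000583). Ido1 averaged 10.4 ± 2.5 CPM in hCD2+ and 4.06 ± 7.3 CPM in hCD2- cells (log2 1.63 ± 0.507, adjusted p = 0.00899), from 373 and 13 UMIs. The groups overlapped: hCD2- cells of mice 1 and 4 had 18.3 and 16.6 CPM of Ido1, above the highest hCD2+ value of 16.5 CPM. In most other mice no Ido1 UMI was counted in hCD2- cells of the class. Ido2, at 14.8 ± 4.44 CPM in hCD2+ and 8.74 ± 11.4 CPM in hCD2- cells, did not pass (adjusted p = 0.146).

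The clusters that make up this class differed in their numbers between the fractions. Cluster 2, Aire-high, held 375 hCD2+ and 14 hCD2- cells, cluster 3 held 621 and 1, and cluster 6, led by Nrg1 and Ncam1, held 275 and 180. Clusters 2 and 3 each had 7 of the 10 class markers elevated, and cluster 6 had 3. The summed level of the 10 markers of the class had a median of 4522 CPM in hCD2+ and 2108 CPM in hCD2- cells. Within cluster 6 alone, 1 of 3 genes tested differed, with 2.59% of all genes. Slc7a5 was lower there, at 15.7 ± 6.35 CPM in hCD2+ and 31.8 ± 12.1 CPM in hCD2- cells (log2 -0.97 ± 0.228, adjusted p = 0.0177). Kynu, at 684 ± 99.5 CPM in hCD2+ and 789.5 ± 183 CPM in hCD2- cells, did not pass (adjusted p = 0.364). Nor did Il4i1, at 309 ± 43.7 CPM in hCD2+ and 273 ± 63.7 CPM in hCD2- cells (adjusted p = 0.551). Tdh and Ido1 were not among the 3 genes tested in cluster 6, so their difference between fractions was not tested in cells of the same cluster.

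In the CCR7 class Slc7a11 had 80.2, 114 and 195 CPM as lowest, median and highest level in hCD2+ cells, against 162, 226 and 377 CPM in hCD2- cells, lower in 12 of 12 mice (log2 -1.07 ± 0.129, adjusted p = 2.68e-07). Slc7a5 averaged 10.7 ± 3.69 CPM in hCD2+ and 17.2 ± 5.09 CPM in hCD2- cells (log2 -0.69 ± 0.177, adjusted p = 0.00354). Ido1 had 3.91, 11.1 and 40.7 CPM in hCD2+ cells, against 1.16, 3.31 and 7.16 CPM in hCD2- cells, higher in 12 of 12 mice (log2 2.11 ± 0.367, adjusted p = 5.73e-05). Ido2 (log2 0.76 ± 0.238, adjusted p = 0.0149) and Tdh (1.90 ± 0.354, adjusted p = 0.000135) were higher in hCD2+ cells as well. Il4i1, at 712 ± 107 CPM in hCD2+ and 679 ± 50.5 CPM in hCD2- cells, did not pass (adjusted p = 0.769), nor did Arg2, at 41.2 ± 11 and 33.8 ± 10.7 CPM (adjusted p = 0.242). Kynu, at 316 ± 58.6 CPM in hCD2+ and 348 ± 40 CPM in hCD2- cells, had a log2 fold change of -0.18 (adjusted p = 0.0855), and was lower with the mouse as a block (-0.19, adjusted p = 0.0305) and after thinning (-0.31, adjusted p = 0.00457).

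These differences changed with the clusters included, a choice made after the data had been seen. Cluster 9, led by St18 and Ccl17, held 328 hCD2+ and 806 hCD2- cells, cluster 8 held 199 and 144, and cluster 10, led by Macc1 and Itgb8, held 225 and 11. Within cluster 9 alone, 0 of 5 genes tested differed by edgeR (7.48% of all genes), with Il4i1 and Arg2 at an unadjusted p under 0.05. Within cluster 8 alone 0 of 4 did (5.85% of all genes), with 0 at an unadjusted p under 0.05. Slc7a11 averaged 253 ± 80.2 CPM in hCD2+ and 287 ± 75.8 CPM in hCD2- cells of cluster 9 (log2 -0.19, adjusted p = 0.468).

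With cluster 10 left out, 3 of 6 tested differed (17.6% of all genes). Slc7a11 (log2 -0.64 ± 0.132, adjusted p = 0.000851) and Kynu (-0.49, adjusted p = 0.00135) were lower, and Arg2 was higher (0.62 ± 0.156, adjusted p = 0.00518). Ido2 then had a log2 fold change of -0.30 (adjusted p = 0.372), and Ido1 averaged 2.76 ± 1.85 CPM in hCD2+ and 3.35 ± 1.97 CPM in hCD2- cells. The summed level of the 10 Prdm16 or Aire class markers in CCR7 DC-like cells ran from 322 to 971 CPM in hCD2+ and from 18.9 to 186 CPM in hCD2- cells, with 6 and 3 of the 10 at 10 CPM or more and 0 and 1 at 0. Their part in the Tdh and Ido1 results was not tested.

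ILC3-like cells gave no detectable difference in Arg1 between fractions. Its lowest, median and highest level was 58.2, 95.1 and 109.7 CPM in hCD2+ cells of 12 mice, against 28.9, 67.4 and 256 CPM in hCD2- cells of 11 mice (log2 -0.19 ± 0.215, adjusted p = 0.749). The hCD2- values lay on both sides of the hCD2+ range. The class held 2390 of the 7099 hCD2+ cells and 172 of the 4762 hCD2- cells. In cDC2-like cells Kynu (adjusted p = 0.203), Il4i1 (0.214), Slc7a11 (0.574) and Slc7a5 (0.88) did not pass. The cDC1-like and NK-like classes had too few hCD2+ mice for the test.

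**Figure D3:**
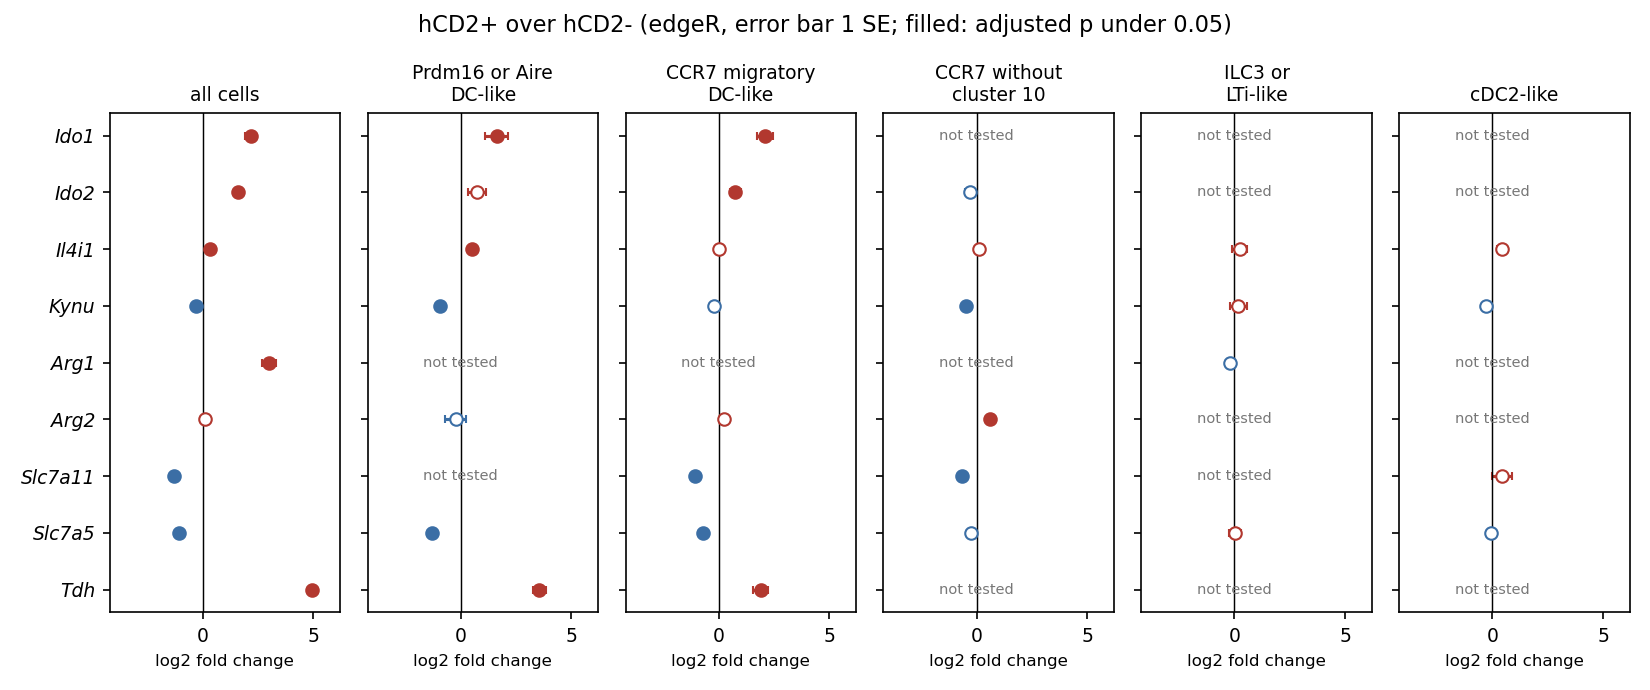
Log2 fold change of hCD2+ over hCD2- cells (x axis) for each gene (rows), in all cells and within classes (panels); points are edgeR estimates with 1 SE, and filled points have an adjusted p under 0.05. Tdh lies at 4.95 in all cells, 3.55 in the Prdm16 or Aire class and 1.90 in the CCR7 class, and Ido2 at -0.30 in the CCR7 class without cluster 10.

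Whether the effect of the fraction differed between classes was tested as an interaction in 1 edgeR fit over 3 classes. Between the Prdm16 or Aire and the CCR7 class 4 genes differed in this way, against 32.1% of all 11481 tested. Il4i1 (difference of log2 fold changes 0.51 ± 0.144, adjusted p = 0.00366) and Tdh (1.66 ± 0.515, adjusted p = 0.00927) had the more positive change in the Prdm16 or Aire class. Kynu (-0.69 ± 0.202, adjusted p = 0.00538) and Slc7a11 (-1.83 ± 0.61, adjusted p = 0.0154) had the more negative one. Slc7a11 had only 24 and 22 UMIs in hCD2+ and hCD2- cells of that class and did not pass after thinning (adjusted p = 0.394). Slc7a5 did not pass (-0.58, adjusted p = 0.0784) except under total UMI scaling (-0.70, adjusted p = 0.032). Between the Prdm16 or Aire and the ILC3 class 2 genes differed, against 26.1% of all genes. Kynu (-1.07 ± 0.318, adjusted p = 0.00764) and Slc7a5 (-1.34 ± 0.339, adjusted p = 0.00158) had the more negative change in the Prdm16 or Aire class. Between the CCR7 and the ILC3 class 1 gene, Arg1, differed (3.51 ± 0.881, adjusted p = 0.00503), against 8.1% of all genes, from 49 hCD2+ and 4 hCD2- UMIs in the CCR7 class, and did not pass after thinning (adjusted p = 0.665).

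Clusters within a class of the hCD2+ library were compared last. Between cluster 2, Aire-high, and cluster 3 of the Prdm16 or Aire class 4 of 6 genes tested differed, where 66.8% of all genes did, and the 4 are given next. Ido1 had 18.9, 30.4 and 39.7 CPM as lowest, median and highest level in cluster 2, against 0.589, 3.95 and 7.25 CPM in cluster 3 (log2 3.08 ± 0.204, adjusted p = 3.4e-14). Ido2 averaged 40.4 ± 21.6 CPM in cluster 2 and 4.93 ± 3.72 CPM in cluster 3 (log2 3.09 ± 0.306, adjusted p = 3.11e-10), higher in 11 of 12 mice.

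Like Ido1 but unlike Ido2, Il4i1 and Tdh did not overlap between these clusters. Il4i1 averaged 697 ± 120.2 CPM in cluster 2 and 264 ± 40.9 CPM in cluster 3 (log2 1.61 ± 0.0909, adjusted p = 7.31e-16). Tdh had 239, 313 and 414 CPM in cluster 2, against 65.4, 101 and 135 CPM in cluster 3 (log2 1.84 ± 0.111, adjusted p = 3.33e-15). Kynu (adjusted p = 0.591) and Slc7a5 (0.884) did not pass.

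Kynu and Tdh separated cluster 6 from cluster 3, where 4 of 4 genes tested and 64.2% of all genes differed. Kynu averaged 684 ± 99.5 CPM in cluster 6 and 316 ± 45.5 CPM in cluster 3, with no overlap (log2 1.12 ± 0.0841, adjusted p = 9.78e-13). Tdh averaged 19.6 ± 15.2 CPM in cluster 6 and 104 ± 20.6 CPM in cluster 3, again with no overlap (log2 -2.73 ± 0.232, adjusted p = 1.71e-11). Slc7a5 was higher in cluster 6 (0.60, adjusted p = 0.0358, but 0.0667 with 20 cells per mouse and 0.117 without the count filter), as was Il4i1 (0.24, adjusted p = 0.016, but 0.0684 with the mouse as a block).

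In the CCR7 class Ido1 was high in cluster 10 and Slc7a11 in cluster 9. Ido1 averaged 38.5 ± 22.8 CPM in cluster 10 of 8 mice and 2.62 ± 3.04 CPM in cluster 9 of 12 mice, without overlap, but fell below the count filter of the test. Of the 7 genes tested 6 differed, against 47.1% of all genes. Ido2 averaged 28.1 ± 11.5 CPM in cluster 10 and 7.95 ± 4.7 CPM in cluster 9 (log2 1.89 ± 0.31, adjusted p = 1.52e-05). Slc7a11 averaged 39.8 ± 21.4 CPM in cluster 10 and 253 ± 80.2 CPM in cluster 9 and did not overlap (log2 -2.74 ± 0.244, adjusted p = 8.75e-10). Slc7a5 (-2.32, adjusted p = 3.1e-05), Arg2 (-1.53, adjusted p = 0.000674) and Il4i1 (-0.38, adjusted p = 0.00353) were lower in cluster 10. Tdh was higher (1.03, adjusted p = 0.0351, but 0.0667 with the mouse as a block). Kynu passed only after thinning (0.40, adjusted p = 0.0275).

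Cluster 8 of the CCR7 class, led by Bcl2l14 and Cpne8, was low in Kynu and Slc7a11. Kynu averaged 96.4 ± 31.1 CPM in cluster 8 and 363 ± 93.0 CPM in cluster 9 (log2 -1.95 ± 0.159, adjusted p = 1.32e-10). Slc7a11 averaged 28.8 ± 11.6 CPM in cluster 8 and 253 ± 80.2 CPM in cluster 9 (log2 -3.08 ± 0.189, adjusted p = 7.21e-13). Neither gene overlapped, and 3 of 4 tested differed (5 of 7 with the mouse as a block), against 44.1% of all genes. In the hCD2- library the same pair of clusters, added after the data had been seen, had -2.01 for Kynu and -2.76 for Slc7a11 (5 of 6 tested, 43.4% of all genes). Arg2 differed there, at 72.8 ± 31.1 CPM in cluster 8 and 27.3 ± 12.8 CPM in cluster 9 (log2 1.42, adjusted p = 0.000411), but did not pass in the hCD2+ library (0.42, adjusted p = 0.22). Slc7a5 (-1.16, adjusted p = 0.00554) and Il4i1 (-0.37, adjusted p = 0.0252) were lower in cluster 8 of the hCD2- library, and Ido2 did not pass (adjusted p = 0.231).

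In the ILC3 class Arg1 averaged 87.5 ± 18.4 CPM in cluster 4, which had Il22, and 87.7 ± 28.4 CPM in cluster 0 (log2 -0.02, adjusted p = 0.98). Of 4 genes tested 0 differed by edgeR, where 9.35% of all genes did. Il4i1 was the 1 gene at an unadjusted p under 0.05 (adjusted p = 0.0666), and DESeq2 called it (adjusted p = 0.0470). Cluster 5, left unnamed and added after the data had been seen, differed from cluster 0 in 2 of 3 tested, with 25.8% of all genes. Kynu was higher, at 127 ± 41.5 CPM in cluster 5 and 23.7 ± 7.05 CPM in cluster 0 (log2 2.48 ± 0.157, adjusted p = 3.12e-13). Arg1 was lower, at 51.0 ± 32.5 CPM in cluster 5 and 87.7 ± 28.4 CPM in cluster 0 (log2 -0.75, adjusted p = 0.0179, but 0.0528 by DESeq2).

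**Figure D4:**
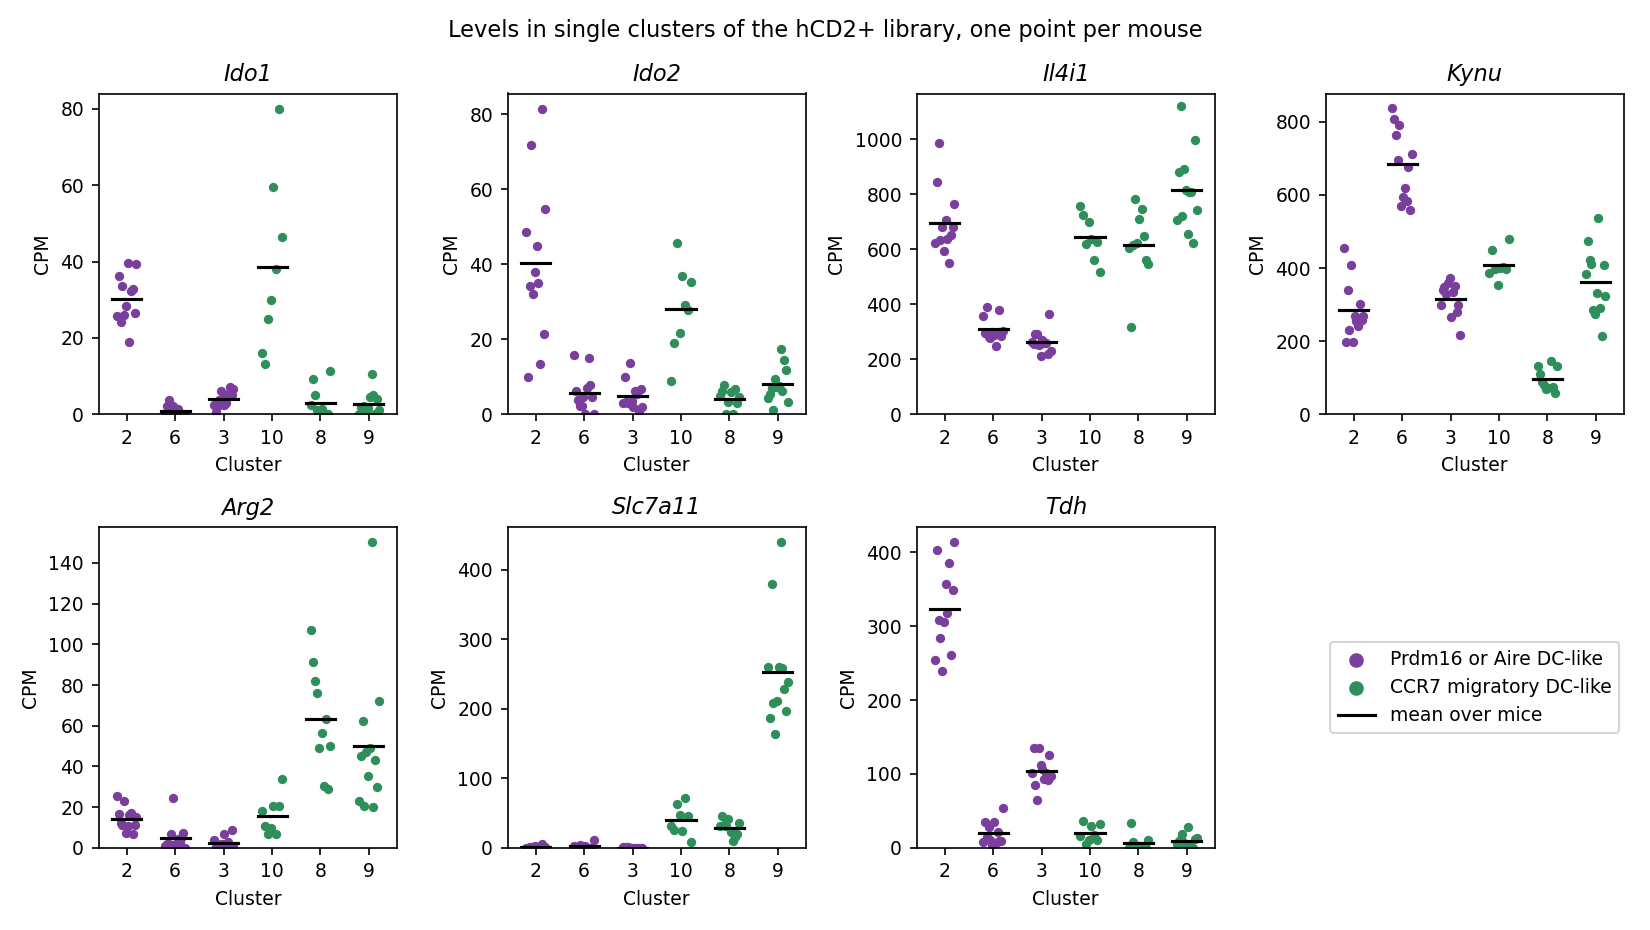
CPM of 7 of the genes (y axis, from 0) in the clusters of the Prdm16 or Aire class (2, 6 and 3) and of the CCR7 class (10, 8 and 9) of the hCD2+ library; a point is 1 mouse and a line the mean. Ido1 lies at 18.9 to 39.7 CPM in cluster 2 and at 0.589 to 7.25 CPM in cluster 3, and among these clusters Slc7a11 is highest in cluster 9.

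Genes whose class means were most like those of each of the 9 were found by Pearson's r over 12 class and library means of log2(CPM + 1) among 10355 genes, as a description. Tdh was most like Gulo (r = 0.985) and Pbld1 (0.984), Il4i1 like Anxa3 (0.986) and Fabp5 (0.982), and Kynu like Grk3 (0.986) and Bcl2a1d (0.982). Ido2 was most like Tnnt2 (0.992), Ido1 like Exoc3l4 (0.960), Arg1 like Arl5b (0.983), Arg2 like Cdkn2b (0.978), Slc7a11 like Ehf (0.962) and Slc7a5 like Bola2 (0.960). The points share 2 libraries and differ in depth.

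Genes of the same pathways, 73 in 8 lists, were read from the same fits. In the kynurenine list beyond the 9 genes, 8 of 11 were tested over all cells, and 3 were higher and 3 lower in hCD2+ cells, where 33.9% of all genes were higher and 33.9% lower. Kmo, the kynurenine monooxygenase, averaged 13 ± 4.1 CPM in hCD2+ and 49.9 ± 10.4 CPM in hCD2- cells (log2 -1.97, adjusted p = 4.4e-12). It averaged 2.65 CPM in the Prdm16 or Aire class and 138 CPM in the cDC2 class of the hCD2+ library (log2 -5.67). Naprt (1.14) and Qprt (1.22), which make NAD precursors, were higher in hCD2+ cells.

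Around the arginases, 11 of 16 list genes were tested over all cells, and 4 were higher and 3 lower in hCD2+ cells, near the 33.9% of all genes in each direction. Odc1, which turns ornithine into putrescine, averaged 732 ± 157 CPM in hCD2+ and 194 ± 47.6 CPM in hCD2- cells (log2 1.90, adjusted p = 4.53e-12). It was lower in the Prdm16 or Aire class, at 80.7 ± 17.7 CPM, than in the ILC3 class, which also held Arg1, at 1962 ± 182 CPM (log2 -4.46, adjusted p = 4.52e-25).

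Around Slc7a11, the cystine, glutathione and thioredoxin list had 10 of 10 genes tested over all cells, 5 higher and 3 lower in hCD2+ cells (33.9% of all genes each way). Gpx4, which reduces lipid peroxides with glutathione, averaged 312 CPM in hCD2+ and 134 CPM in hCD2- cells (log2 1.20, adjusted p = 3.88e-16), while Nfe2l2, a regulator of antioxidant genes, was lower (-0.61). The list had 7 of 7 genes tested higher in the CCR7 than in the cDC2 class of the hCD2- library, where 37.6% of all genes were higher and 40.7% lower. Gclc, which makes the first step of glutathione synthesis, averaged 369 ± 114 CPM in that CCR7 class and 38.7 ± 8.44 CPM in the cDC2 class (log2 3.66, adjusted p = 8.77e-19). In the hCD2+ library it averaged 91.9 CPM in the Prdm16 or Aire class and 464 CPM in the CCR7 class (log2 -2.64). In cluster 8, where Slc7a11 was low, Gclc was higher than in cluster 9 (log2 2.51, adjusted p = 1.15e-13).

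Beside Tdh, the threonine and glycine list had 5 of 8 genes tested over all cells, 2 higher and 1 lower in hCD2+ cells (33.9% of all genes each way). Gldc, of the glycine cleavage system, averaged 4.73 CPM in hCD2+ and 0.563 CPM in hCD2- cells (log2 3.05), and Gcat, which completes the route that TDH opens, had a log2 fold change of 0.38. In cluster 2 Gcat averaged 22.5 ± 7.52 CPM, against 5.69 ± 2.28 CPM in cluster 3 (log2 2.20, adjusted p = 1.02e-10). Dao, a D-amino acid oxidase on the oxidase list beside Il4i1, averaged 42.1 ± 9.64 CPM in cluster 2 and 16.6 ± 3.38 CPM in cluster 3 (log2 1.56, adjusted p = 9.91e-12). That list had 2 of 4 genes tested over all cells, both higher in hCD2+ cells, where 33.9% of all genes were.

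Beside the transporters, the amino acid stress list of GCN2 and ATF4 genes had 9 of 10 tested over all cells, 0 higher and 4 lower in hCD2+ cells, Psat1 among them (log2 -0.69), where 33.9% of all genes were higher and 33.9% lower. The neutral amino acid transport list had 7 of 7 tested, 4 higher and 1 lower, against the same shares. Of the list around the aryl hydrocarbon receptor, which binds kynurenine, 4 of 7 were tested, 2 higher and 2 lower, against the same shares. Tiparp, a target of the receptor, averaged 258 ± 44.2 CPM in hCD2+ and 140.1 ± 18.8 CPM in hCD2- cells (log2 0.86), and Ahr itself was lower (-0.73).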

How the data were processed

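Polyadenylated RNA of sorted mLN cells was read in 2 droplet libraries of pooled, hashtagged cells. The authors deposited UMI counts per gene and barcode, made with Cell Ranger 8.0.1 on mm10, per the submitters' processing notes, and a hashtag table whose posterior probability (a fraction) gave each cell's mouse. Barcodes called as 1 hashtag were kept; those called as multiplets, 806 hCD2+ and 465 hCD2-, were removed as doublets, and no other doublet caller was run. Cells needed 500 genes and at most 10% mitochondrial UMIs. Of the deposited hashtag table, 48 per-hashtag columns were not used.

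Cells were clustered with scanpy 1.11.5 (2000 variable genes without the 9 genes and the pathway lists, 30 principal components, 15 neighbours, Leiden resolution 1). Clusters were named from 17 marker lists, where at least 3 markers passed a fold of 2 in 10% of cells. That naming rule was set after clustering, classes were defined and compared on the same cells, and p-values between classes do not allow for this. UMIs were summed per mouse, fraction and class (10 cells per mouse, 6 mice per arm). Tests were edgeR 4.0.16 quasi-likelihood fits (TMM, filterByExpr, R 4.3.3); the SE is the log2 fold change over the root of F. CPM are summed UMIs scaled to 1000000. DESeq2 1.42.0, RLE, no filter, mouse as a block, thinning to 5000 UMIs, 20 cells, other clusterings and a pseudocount of 10 were alternatives; total UMI scaling and the fits on single or left-out clusters were added after the data had been seen. The edgeR fit was tested on simulated counts with known fold changes. Those counts had the same dispersion for every gene, no pairing by mouse and no mixture of clusters, so the simulation does not cover these features.

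The same 12 mice stood in both libraries: deviations of same-mouse samples correlated at 0.245 to 0.703 over 5312 genes, 12 of 12 above 0.1. The rule for named genes took all 9 in each comparison and, of the pathway lists, those of smallest adjusted p; where a comparison is given more briefly, some of the 9 stand only in its count. The 9 genes and all lists were chosen with earlier results of these data known. Depth per mouse was 7269488 to 17966298 hCD2+ and 5914558 to 16238728 hCD2- UMIs.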

Additional observations from a re-analysis of the deposited data

Results flagged for a closer look

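The fraction effect differed between classes in 7 interaction tests (edgeR, adjusted p over all genes). Between the Prdm16 or Aire and the CCR7 class the differences of log2 fold changes were 0.51 for Il4i1, -0.69 for Kynu, -1.83 for Slc7a11 and 1.66 for Tdh. Between the Prdm16 or Aire and the ILC3 class they were -1.07 for Kynu and -1.34 for Slc7a5. Between the CCR7 and the ILC3 class it was 3.51 for Arg1 (adjusted p = 0.00503, where 8.1% of all genes differed), which rested on 49 hCD2+ and 4 hCD2- UMIs in the CCR7 class and was 1.03 after thinning (adjusted p = 0.665). Of the 49 UMIs, 46 lay in cluster 8. The clusters of the Prdm16 or Aire and CCR7 classes stand in unequal numbers in the fractions, and their part in these differences was not tested.

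In 4 of 20 groups of 4 to 10 mice 1 mouse stood apart, by the gap to its neighbour over the range. The limit used gives about 1 in 20 for normally distributed values. CPM from few UMIs need not be so distributed, so that rate may not hold here. Arg2 was at 78.0 CPM in monocyte or macrophage-like cells of 1 hCD2+ mouse, against 35.3 to 38.4 CPM in the others. Ido2 was at 36.7 CPM in Prdm16 or Aire DC-like cells of 1 hCD2- mouse, against 0 to 15.6 CPM. Slc7a11 was at 125 CPM in cDC2-like cells of 1 hCD2+ mouse, against 5.0 to 39.7 CPM. Slc7a5 was at 80.8 CPM in pDC-like cells of 1 hCD2- mouse, against 46.6 to 54.3 CPM.

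In unnamed clusters, left out of the comparisons, some levels lay above every named class of at least 50 cells, with exact Poisson 95% intervals for counting error. Cluster 15 had at most 1 marker of any class and a median of 2271 UMIs. Cluster 16 had 10 of 10 CCR7 markers but was left unnamed for its low median of 3402 UMIs. Cluster 7 had 8 of 8 T cell and 7 cDC2 markers, with a median of 49152 UMIs. Cluster 21 had 8 of 8 T cell markers, but another list held more of its leading genes. Il4i1 was at 954 CPM (842 to 1077) in cluster 16 of the hCD2+ library, 59 cells, against 714 CPM pooled over the CCR7 class, and the 1 mouse with 10 or more cells had 849 CPM. Tdh was at 274.5 CPM (213 to 348) in cluster 15 of the hCD2+ library, 75 cells and 68 UMIs, against 145 CPM pooled over the Prdm16 or Aire class; the 2 mice with 10 or more of these cells averaged 164 ± 3.18 CPM (SD). Slc7a5 was at 80.6 CPM (70.7 to 91.5) in cluster 21 and 62.8 CPM (56.0 to 70.2) in cluster 7 of the hCD2+ library (57.9 ± 24.3 CPM over 3 mice for cluster 7, and no mouse with 10 cells for cluster 21), against 42.9 CPM in T cell-like cells. In the hCD2- library it was at 134 CPM (120.0 to 148) in cluster 21 (147 CPM in the 1 mouse with 10 or more cells), against 58.2 CPM in pDC-like cells. Below the 50 cells, hCD2+ pDC-like cells (32) had 93.1 CPM and hCD2+ NK-like cells (48) had 60.4 CPM of Slc7a5.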

How the results depend on the processing

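RLE and total UMI scaling left 24 of 24 counts of the 9 genes called within 1.5 times; total UMI scaling turned Kynu to 0.25 (Prdm16 or Aire over CCR7) and -0.24 (CCR7 over cDC2, hCD2-), and put the share of higher calls among all genes at 71.7% against 52.7% and at 28.1% against 48.0% in these pairs. The mouse as a block gave 8 called genes of the 9 for CCR7 over cDC2 and 5 for cluster 8 over 9, and 447 genes in all (1051 without it) between the cDC2 fractions; it changed 4 calls of genes tested both ways, all given in the text. Its lower count filter let 22 more be tested, of which 18 were called in 13 comparisons, among them Ido1 (-7.37) and Tdh (-5.89) for ILC3 over CCR7, Arg2 (3.91) for Prdm16 or Aire over ILC3, Ido1 (3.52) for cluster 10 over 9, and, between fractions, Arg1 (3.06) in the CCR7 and Slc7a11 (-2.59) in the Prdm16 or Aire class. Of the Arg1 UMIs in hCD2+ CCR7 DC-like cells, mice 2, 5 and 12 gave 15, 10 and 20, and each other mouse at most 1. That Slc7a11 call also rested on few UMIs, as given with the interaction tests. Without cluster 10, 8 of the 9 were called for Prdm16 or Aire over CCR7 (Ido1 1.63, Ido2 0.97, Kynu 0.28) and 3 between the CCR7 fractions (1441 genes in all; Ido2 -0.30). Cluster 9 alone gave 0 (537 genes in all; Slc7a5 0.13), cluster 8 alone 0 (309), cluster 6 alone 1 (167), and the ILC3 fractions with cluster 5 gave 499 genes. Without the count filter, 8 were called for CCR7 over cDC1, 8 over cDC2 and 5 for cluster 8 over 9, with 5989 genes for ILC3 over NK, 7867 for Prdm16 or Aire over CCR7 in hCD2- cells and 172 between T cell-like fractions. DESeq2 called 1 for cluster 4 over 0 and 1 for cluster 5 over 0, where Arg1 was lost, and 494 genes between ILC3 fractions. With 20 cells per mouse 2 were called for cluster 6 over 3, and cluster 8 over 9 in the hCD2- library gave 5. Leiden resolution 1.5 gave 168 genes between ILC3 and 2312 between T cell-like fractions, and clustering with the 9 genes allowed gave 427 between ILC3 fractions. In the main fits of the hCD2- library 78.3% of all genes were called for CCR7 over cDC2 and 79.1% for CCR7 over cDC1. For cluster 8 over 9 in the hCD2+ library 44.1% were. Shares of all genes under the alternatives are not given, so these counts are not read as results on the 9 genes. The cause of these changes was not tested.

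Thinning to 5000 UMIs removes counts, drops cells with fewer UMIs and gives each remaining cell equal weight. The counts of calls below were lower, though Kynu gained a call between the CCR7 fractions and for cluster 10 over 9. Of the 9, thinning called 5 between fractions in all cells, 3 in the Prdm16 or Aire and 2 in the CCR7 class. Without thinning, 67.8%, 49.8% and 32.6% of all genes were called in these comparisons. Shares of all genes after thinning are not given, so the thinned counts of the 9 have no share beside them. In hCD2+ classes it called 3 for Prdm16 or Aire over CCR7 and 2 over cDC2; in hCD2- classes 3 for CCR7 over cDC1, 2 over cDC2, 2 for cDC1 over cDC2 and 0 for ILC3 over NK; among clusters 2 for 10 over 9 and 2 for 2 over 3; and 0 for the CCR7 with ILC3 and 1 for the Prdm16 or Aire with ILC3 interaction. Genes called in all were 2032, 1068, 82, 253 and 41 between fractions of the Prdm16 or Aire, CCR7, ILC3, cDC2 and T cell-like classes. They were 5399, 3404 and 2655 for Prdm16 or Aire over ILC3, CCR7 and cDC2, and 5281 for ILC3 over CCR7. In hCD2- cells they were 3580 for CCR7 over cDC2, 2567 over cDC1, 1984 for cDC1 over cDC2, 1964 for Prdm16 or Aire over CCR7 and 1308 for ILC3 over NK. For clusters 10 over 9, 8 over 9, 2 over 3, 6 over 3, 4 over 0 and 5 over 0 they were 1062, 830, 2236, 2138, 386 and 998, and for the Prdm16 or Aire with CCR7, Prdm16 or Aire with ILC3 and CCR7 with ILC3 interactions 1297, 1056 and 308. Depth limits Ido1, Ido2 and Arg1 outside their main classes, where a few UMIs make each value.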

Other observations

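Phgdh, the first enzyme of serine synthesis and a gene of the amino acid stress list, was higher in the Prdm16 or Aire than in the CCR7 class. In the hCD2- library it averaged 48.7 ± 17.9 CPM in the Prdm16 or Aire class, there mainly cluster 6, and 0.459 ± 0.34 CPM in the CCR7 class (SD, 10 and 12 mice; edgeR, log2 6.35, adjusted p = 2.06e-16). In the hCD2+ library it averaged 27.7 and 0.64 CPM (log2 5.61). It did not rise with the markers of the Prdm16 or Aire class. Within that class Phgdh was lower in Aire-high cluster 2, at 5.24 ± 4.59 CPM, than in cluster 3, at 31.6 ± 9.81 CPM (log2 -2.40, adjusted p = 6.53e-09), where Tdh, Gcat and Shmt1 were higher in cluster 2. Slc1a5, a carrier of glutamine and other neutral amino acids, averaged 272 CPM in the Prdm16 or Aire class and 49.4 CPM in the CCR7 class of the hCD2+ library (log2 2.14).

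In the cDC1 class of the hCD2- library Ass1, which rebuilds arginine from citrulline, averaged 130.0 ± 22.7 CPM, against 50.9 ± 27.4 CPM in the cDC2 class (log2 1.38, adjusted p = 3e-07), and Ahr averaged 314 ± 50.8 and 181 ± 23.6 CPM (log2 0.84, adjusted p = 1.23e-08). Sat1, which acetylates polyamines, was higher in hCD2+ than in hCD2- ILC3-like cells, at 211 ± 25.3 and 135 ± 40.4 CPM (log2 0.65, adjusted p = 0.00102), 1 of 2 genes of the arginine list higher there among 10 tested, where 2.94% of all genes differed.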
